A study of Mus musculus with 2 samples.

Results

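Gamma-delta T cells were taken from 2 single-cell libraries of mouse skin tumours by a gate on UMIs, the unique molecular identifiers that count captured RNA molecules. Barcodes with 500 genes or more, and no more than 15% mitochondrial UMIs, were kept. A kept barcode entered the gate with at least 2 UMIs of Cd3e, Cd3d and Cd3g together, at least 2 UMIs of Trdc and Tcrg-C1 together, and 0 UMIs of Cd8a, Cd8b1 and Foxp3. The gate held 82 of 29006 kept cells, 15 of 21484 in Eed iKO-D and 67 of 7522 in Ctrl-D. The cells were thus chosen by their measured UMIs of the gate genes, whose levels are given as a description.

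Eed iKO-D came from mice with K14CrERT2 and Eed flox/flox that were given hydroxyl-tamoxifen (20 mg/ml) on the back skin on 4 days from postnatal day 50, and the carcinogen DMBA weekly for up to 20 weeks. Ctrl-D came from Eed flox/flox mice that were given ethanol and the same DMBA. Both sets of mice were 5 months old, and whole dorsal skin tumours were dissociated and passed through dead cell removal. Both groups thus carry the floxed alleles and DMBA, while Cre and tamoxifen differ together. The keratin 14 promoter acts in basal keratinocytes, so T cells are not the cells in which this Cre is made. The labels call the material epidermal cancer cells, which the gated cells are not. Each group had 1 library, and the number and sex of the animals were not given. No difference between the libraries therefore has a replicate check, no p-value was computed, and the intervals below are 95% intervals that cover counting error only.

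Gamma-delta T cells carry a T cell receptor of a gamma and a delta chain, which is held at the surface by the CD3 chains. In mouse skin they form several populations. Dendritic epidermal T cells sit among the keratinocytes, are cytotoxic and make growth factors for the epithelium. Dermal gamma-delta cells are poised to release interleukin 17 (IL-17) in response to IL-23 and IL-1. In both of these populations many cells use a delta chain whose variable segment is encoded by Trdv4.

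The libraries held 289511009 UMIs in 22259 barcodes of Eed iKO-D and 120500892 UMIs in 8039 barcodes of Ctrl-D. The median kept cell had 3191 UMIs in Eed iKO-D and 13199 in Ctrl-D. The libraries shared 49 cell barcodes, none of them in the gate. Eed itself was at 39.2 CPM (UMIs scaled to a common library total) in Eed iKO-D cells with 0 Cd3 UMIs and at 54.2 CPM in such cells of Ctrl-D. The labels do not say which exons are floxed, so a 3' tag need not lie in the deleted part and does not check the deletion.

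The gate caught different cells in the libraries. In Ctrl-D all 67 cells had UMIs of Cd3d or Cd3g, the CD3 chains beside Cd3e, and 58 had Ptprc, the leukocyte surface phosphatase CD45. In Eed iKO-D 9 of the 15 cells had Cd3d or Cd3g, and all 9 had Ptprc. The other 6 passed on Cd3e alone, with 239 Cd3e UMIs among them and 22 Trdc UMIs, from 2 to 8 a cell. They had 0 UMIs of Cd3d, Cd3g, Cd247, Lck, Ptprc, Tcrg-C1 and Trdv4. All 67 Ctrl-D cells had at least 4 CD3 UMIs. The 6 Eed iKO-D cells were deep, with a median of 46475 UMIs and a range of 32205 to 91853, and held 71.3% of all UMIs of the Eed iKO-D gate. A list of 8 fibroblast genes stood at 55244 CPM in them, with Col1a1 from 191 to 2336 UMIs a cell. The same list was at 5908 CPM in the 9 other Eed iKO-D cells and at 25.2 CPM in Ctrl-D. Among the 9 cells its median was 1024 CPM and its highest value 16824 CPM, in a cell of 36317 UMIs. The data go against the label of gamma-delta T cell for the 6 cells, and results of Eed iKO-D are given with and without them.

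**Figure D1:**
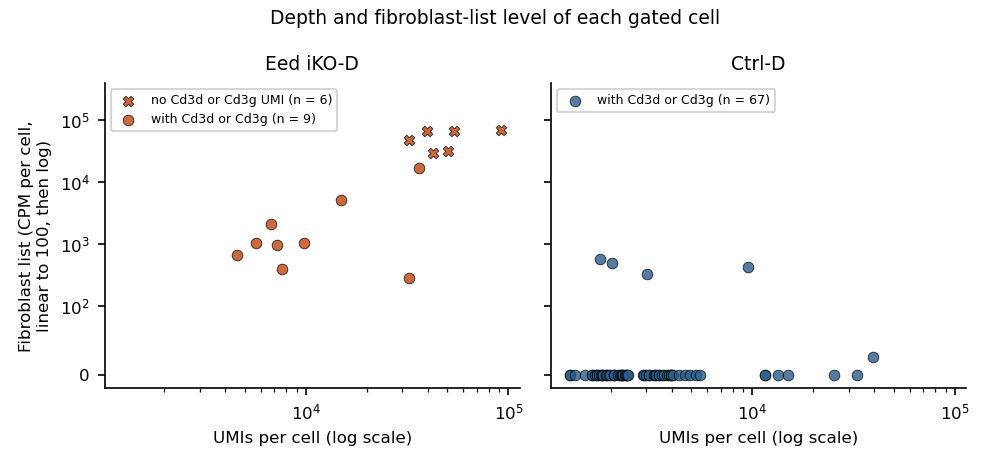
Each point is a gated cell, with its UMIs on a log axis and its summed level of 8 fibroblast genes in CPM (linear to 100, then log), Eed iKO-D left and Ctrl-D right. Crosses are cells with 0 UMIs of Cd3d and Cd3g. The 6 crosses lie at 29061 CPM or more, and 62 of the 67 Ctrl-D cells lie at 0.

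The 9 Eed iKO-D cells with Cd3d or Cd3g had 4552 to 36317 UMIs with a median of 7617, against 1258 to 39311 with a median of 2409 in the 67 Ctrl-D cells. Among the 9, the cell with 32324 UMIs had 88 Gzma, 8 Gzmb and 100 Gzmc UMIs beside 3 Trdc and 4 Cd3g UMIs, and a list of NK cell genes stood at 2722 CPM in it. The cell with 36317 UMIs had 1121 UMIs of S100a8, a neutrophil gene, beside 3 Trdc and 2 Cd3d UMIs. Both of these cells had 0 UMIs of Cd3e and Tcrg-C1, and their genes of other lineages leave the gamma-delta label unsure for them. They were kept among the 9 cells, which held 125094 UMIs in all. Summed values of the 9 cells therefore rest mostly on these 2 deep cells. In Ctrl-D 7 cells had more than 10000 UMIs. Genes of other lineages were high in few Ctrl-D cells, up to 34287 CPM of the macrophage list in a cell of 4054 UMIs and 54217 CPM of the neutrophil list in a cell of 4648 UMIs. The median Ctrl-D cell had 0 CPM of both lists. The keratinocyte list was above 0 in 65 of the 67 cells, with a median of 1131 CPM and a highest value of 68425 CPM in a cell of 32985 UMIs that had 563 Krt14 UMIs. The part of these UMIs in the results was not tested. Scrublet, a doublet caller, marked 4 of the 67 Ctrl-D cells and did not work in Eed iKO-D, where it marked 0 of 21484 cells. Without the 4 cells, the counts of genes apart between the libraries stayed within 1.5 times of those given below.

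Cells near the threshold were more frequent among the gated cells of Eed iKO-D. With 1 UMI of Trdc and Tcrg-C1 together, just outside, there were 24 cells in Eed iKO-D and 5 in Ctrl-D. With 2 UMIs, just inside, there were 3 in each library. At 5 UMIs or more there were 8 cells in Eed iKO-D and 48 in Ctrl-D. A further 37 Eed iKO-D cells and 3 Ctrl-D cells had at least 2 UMIs of Trdc and Tcrg-C1 but under 2 of CD3, and Ptprc was found in 6 of the 37 and in 3 of the 3. The conditions on Cd8a and Cd8b1 and on Foxp3 each removed 0 cells in Eed iKO-D and 5 in Ctrl-D.

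Gated cells were 0.0698% of kept cells in Eed iKO-D (interval 0.0391 to 0.115%) and 0.891% in Ctrl-D (0.691 to 1.13%). Of the kept cells with at least 2 CD3 UMIs they were 15 of 568 in Eed iKO-D, or 2.64% (1.49 to 4.32%), and 67 of 600 in Ctrl-D, or 11.2% (8.76 to 13.96%). Once Cd3d or Cd3g was required, they were 9 of 148 CD3 cells in Eed iKO-D, or 6.08% (2.82 to 11.2%), and 67 of 472 in Ctrl-D, or 14.2% (11.2 to 17.7%). Under that condition the intervals of the 2 libraries met narrowly for CD3 cells. Of all kept cells the 9 Eed iKO-D cells were 0.0419% (0.0192 to 0.0795%), against 0.891% (0.691 to 1.13%) in Ctrl-D. Those intervals did not meet. The kept cells of the libraries also differed in depth, and the part of depth and of the yield of other cells in these shares was not tested.

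**Figure D2:**
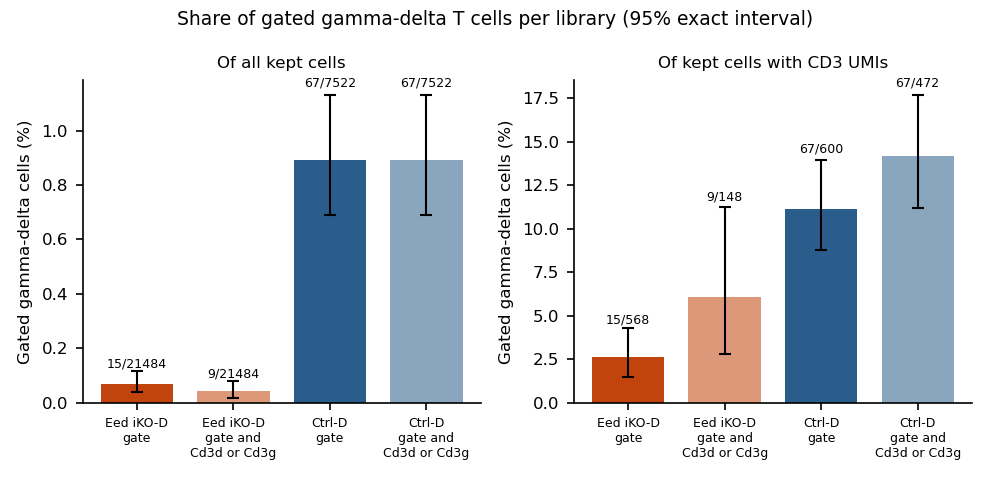
Bars give the percentage of gated gamma-delta cells among all kept cells (left panel) and among kept cells with at least 2 CD3 UMIs (right panel), with exact 95% intervals and cell counts, Eed iKO-D in orange and Ctrl-D in blue. Pale bars require Cd3d or Cd3g as well, which leaves 9 Eed iKO-D cells and all 67 Ctrl-D cells.

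Trdc, the delta constant region (chr14:54142851-54148868, plus strand, mm10), had 105 UMIs over the 15 Eed iKO-D cells, 83 of them in the 9 with Cd3d or Cd3g, and 517 UMIs over the 67 Ctrl-D cells. Tcrg-C1, a gamma constant region (chr13:19214103-19217024, plus strand), had 11 UMIs in 5 Eed iKO-D cells and 96 UMIs in 45 Ctrl-D cells. Of the other gamma constant regions, Tcrg-C4 was found in 2 Eed iKO-D and 18 Ctrl-D cells, Tcrg-C2 in 2 and 4 cells, and Tcrg-C3 in 0 and 0.

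The gate did not use Trdv4 (chr14:54074905-54075515, plus strand). Among the 6 delta variable segments whose names begin with Trdv, Trdv4 was the only one with a UMI. Delta variable segments under other names were not counted. It had 23 UMIs in 6 of the 15 Eed iKO-D cells, all 6 among those with Cd3d or Cd3g, and 157 UMIs in 52 of 67 Ctrl-D cells. After thinning to 1000 UMIs a cell it was found in 29 of 67 Ctrl-D cells and in 0 of 1000 kept Ctrl-D cells with 0 CD3 UMIs. Gamma variable segments were rare. Trgv2 was found in 2 Eed iKO-D and 6 Ctrl-D cells, Tcrg-V5 in 1 and 4, Tcrg-V6 in 2 and 1, Tcrg-V1 in 0 and 3 and Tcrg-V4 in 0 and 0. A cell with no UMI of a variable segment was not assigned to any chain.

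Alpha-beta receptor genes were found as well. Trac, the alpha constant region, had 2 UMIs in 2 Eed iKO-D cells and 13 UMIs in 11 Ctrl-D cells, and Cd4 had 0 in both. Trbc1 and Trbc2, the beta constant regions, were more frequent, with Trbc1 in 5 Eed iKO-D and 35 Ctrl-D cells and Trbc2 in 8 and 43. In Ctrl-D thinned to 1000 UMIs, Trbc1 was found in 31.3% of gated cells against 0.7% of cells with 0 CD3 UMIs. Trac was at 41.0 CPM in the Ctrl-D gate, against 311 CPM in CD8 T cells and 267 CPM in Foxp3 T cells of that library.

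Within the gate the Ctrl-D cells fell into 2 expression patterns that hardly overlapped. The first carried genes of IL-17 cells. Cd163l1, a scavenger receptor known as a marker of IL-17-producing gamma-delta cells, was found in 22 of 67 cells, and Il17a, the cytokine itself, in 12. Il23r, a subunit of the IL-23 receptor, was found in 18 cells, and Blk, a kinase of the Src family that such cells need, in 16. The second carried Fcer1g, an adaptor chain with an activating motif, in 42 cells and Nkg7, a protein of cytotoxic granules, in 43. Xcl1, a chemokine that attracts cross-presenting dendritic cells, was found in 24 cells.

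Cd163l1 and Fcer1g were never found in the same Ctrl-D cell. Of the 67 cells, 22 had Cd163l1 alone, 42 had Fcer1g alone and 3 had neither. Il17a was in 12 cells, all of them without Fcer1g and without Nkg7, and 10 of the 12 had Cd163l1. Fcer1g and Nkg7 went together, with 41 cells having both, 1 only Fcer1g and 2 only Nkg7. All 24 cells with Xcl1 had Fcer1g. Il23r overlapped a little, with 3 of its 18 cells having Fcer1g. Trdv4 did not follow the split, since it was found in 17 of the 22 cells with Cd163l1 and in 33 of the 42 with Fcer1g.

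**Figure D3:**
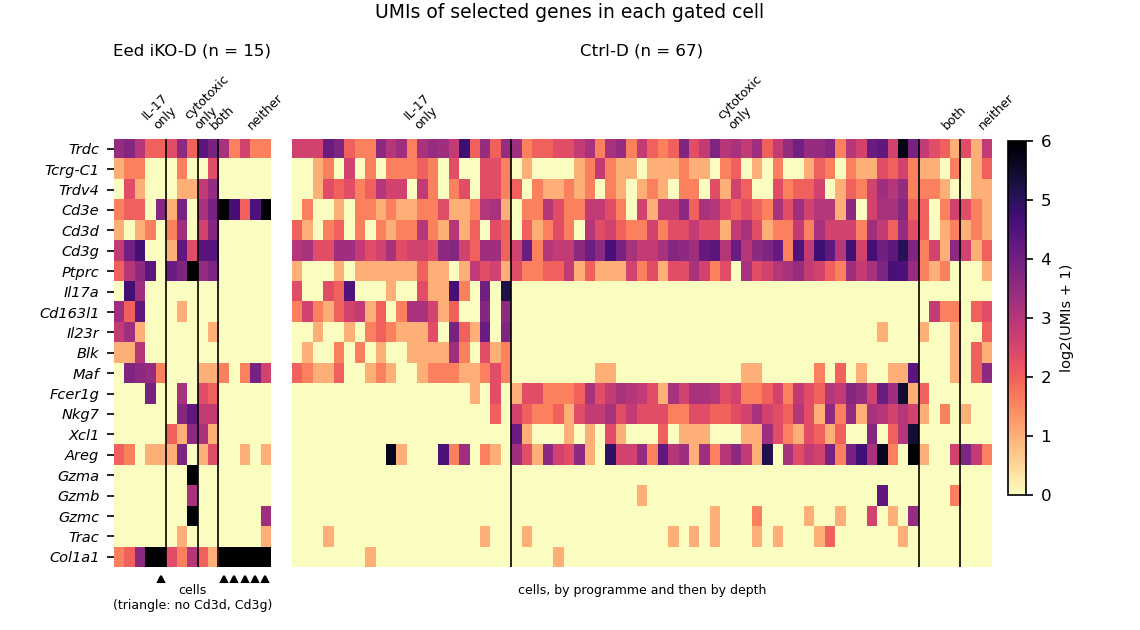
Each column is a gated cell, Eed iKO-D left and Ctrl-D right, ordered by programme and then by depth, and colour gives log2(UMIs + 1). Triangles mark the 6 Eed iKO-D cells without Cd3d and Cd3g. In Ctrl-D the block with Il17a, Cd163l1, Il23r and Blk and the block with Fcer1g, Nkg7 and Xcl1 are nearly separate, while Trdc and Trdv4 run through both.

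The 15 Eed iKO-D cells are too few for shares and are given as cells. Il17a was found in 2 cells, with 25 and 9 UMIs, and both also had Il23r and Cd163l1 and neither had Fcer1g or Nkg7. A further cell, with 5674 UMIs in all, had 6 Il23r, 9 Cd163l1 and 1 Blk UMIs but 0 Il17a. Fcer1g and Nkg7 were found together in 3 cells, of 4552, 7617 and 9770 UMIs. The cell of 7617 UMIs also had 1 Cd163l1 UMI, and the cell of 9770 UMIs had 1 Il23r UMI. A cell of 7210 UMIs had 3 Xcl1 UMIs and 0 of Fcer1g and Nkg7. The deep cell with granzymes had 18 Nkg7 and 11 Xcl1 UMIs and 0 of Fcer1g, and the deep cell with S100a8 had 14 Fcer1g UMIs and 0 of Nkg7. None of the 6 cells without Cd3d and Cd3g had Il17a, Il23r, Cd163l1, Fcer1g or Nkg7.

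To count both patterns at equal depth, each cell was thinned to 1000 UMIs and scored for 10 IL-17 core genes and 10 cytotoxic core genes. In Ctrl-D 21 of 67 cells had only IL-17 core UMIs, or 31.3% (20.6 to 43.8%), and 39 had only cytotoxic core UMIs, or 58.2% (45.5 to 70.2%). Both were found in 4 cells (5.97%) and neither in 3. In Eed iKO-D the 9 cells with Cd3d or Cd3g held 4, 3, 2 and 0 cells in these classes, and all 15 cells held 5, 3, 2 and 5. A class rests on few UMIs, since 4 Ctrl-D cells had exactly 1 thinned IL-17 core UMI and 13 exactly 1 thinned cytotoxic core UMI. In thinned Ctrl-D cells the cytotoxic core rested mostly on Nkg7, Xcl1, Klrd1 and Prf1, found in 32, 13, 13 and 8 cells. Granzymes were nearly absent, with Gzmb in 2 cells, Gzmc in 1 and Gzma in 0. Ccl5, Ifng and Tbx21 of that core were in 0 cells as well. Without thinning, 17 Ctrl-D cells had UMIs of both cores, and 13 of the 17 had Maf, a transcription factor of IL-17 cells. Maf alone was found in 19.3% of thinned Eed iKO-D cells with 0 CD3 UMIs and in 10.2% of those in Ctrl-D, while Il17a and Cd163l1 were found in 0 of 1000 in each. The cytotoxic core was found in 0.9% of such cells in Eed iKO-D and in 0.7% in Ctrl-D. The classes are ranges of a score and not cell types.

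The 21 IL-17-only and 39 cytotoxic-only cells of Ctrl-D were then compared over all genes outside the cores. The cells were split on their own counts, so the differences are a description with no test. Of 2554 genes with at least 20 UMIs in both sets together, 20.0% were at least 1.5-fold higher in IL-17-only cells and 34.3% at least 1.5-fold lower. The median log2 ratio over all 2554 was -0.14. IL-17-only cells had a median of 2310 UMIs and cytotoxic-only cells of 2914, the median Trdc count was 7 against 6 UMIs a cell, and Trdv4 was found in 16 of 21 against 31 of 39 cells.

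Ikzf3, which encodes the zinc-finger factor Aiolos, was at 1105 CPM in IL-17-only cells and 11.1 CPM in cytotoxic-only cells, and was found in 19 of 21 against 1 of 39 cells. Il7r, the IL-7 receptor, was at 1625 CPM against 49.7 CPM, a ratio of 32.7 (16.7 to 73.1), in 20 of 21 against 3 of 39 cells. Zbtb16, the factor PLZF of innate-like T cells, was found in 15 of 21 against 0 of 39 cells and was at least 27.6-fold higher, with 3 UMIs over the group as the floor for a count of 0. Icos, a co-stimulatory receptor, was at 914 CPM against 27.6 CPM. Pdcd1, which encodes the checkpoint receptor PD-1, had 26 UMIs in 12 IL-17-only cells and 0 UMIs in cytotoxic-only cells. Il1r1, the IL-1 receptor, and Il18r1, a subunit of the IL-18 receptor, were found in 11 and 14 IL-17-only cells, and in 0 and 2 cytotoxic-only cells. St6galnac3 and St3gal3, sialyltransferases, and Ramp1, a subunit of the receptor for the neuropeptide CGRP, made up the rest of the 10 genes with the largest ratios.

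Of the 26 genes of the IL-17 list, 12 had enough UMIs and lay outside the core. In IL-17-only cells 11 of these were at least 1.5-fold higher and 1, the glycerol channel gene Aqp3, was lower. The median log2 ratio was 4.10, or 3.93 with counts of 0 set to the floor. Rora, a nuclear receptor that promotes IL-17 expression, was at 1727 CPM in IL-17-only cells and 155 CPM in cytotoxic-only cells. Cxcr6 and Ccr2, chemokine receptors, were at 635 and 330 CPM in IL-17-only cells, against 88.4 and 38.7 CPM in cytotoxic-only cells. Cxcr4 was at 508 CPM against 49.7 CPM.

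Of 14 measured genes of a list known from dendritic epidermal T cells, 3 were at least 1.5-fold higher in IL-17-only cells and 7 in cytotoxic-only cells, beside 20.0% and 34.3% of all genes. Among cells of at most 10000 UMIs these were 3 and 6 of 13. Cd69, Nr4a1 and Crem of that list were the 3 genes higher in IL-17-only cells. Fcer1g was found in all 39 cytotoxic-only cells and in 2 of 21 IL-17-only cells, at 63.5 CPM in IL-17-only cells and 1343 CPM in cytotoxic-only cells. Ctla2a, which encodes a cysteine protease inhibitor, was at 279 CPM in IL-17-only cells against 4437 CPM in cytotoxic-only cells, the highest level of any of the 20 genes named for this split. Trat1, a transmembrane adaptor of the T cell receptor complex, was at 25.4 CPM against 961 CPM. Il12rb2, the signalling subunit of the IL-12 receptor, was at 12.7 CPM against 624 CPM, and Prkch, a protein kinase C, at 12.7 CPM against 972 CPM. Gsdme, a pore-forming gasdermin that granzyme B can cut, had 0 UMIs in IL-17-only cells and 51 UMIs in 23 cytotoxic-only cells. Fermt2, Zmat4, Atp1b1 and Trf completed the 10 genes with the lowest ratios.

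Outside the named genes the cytotoxic-only cells were also higher in Cd7, a surface marker of cytotoxic lymphocytes, with 114 CPM in IL-17-only cells and 917 CPM in cytotoxic-only cells. Areg, the growth factor amphiregulin, was at 1105 CPM in IL-17-only and 2287 CPM in cytotoxic-only cells, and was found in 7 of 21 against 36 of 39 cells. Runx3, a factor of cytotoxic lymphocytes and of dendritic epidermal T cells, was at 127 CPM against 558 CPM. Cd244a had 0 UMIs in IL-17-only cells and was found in 20 cytotoxic-only cells. Of 7 measured genes of the cytotoxic list outside the core, 0 were at least 1.5-fold higher in IL-17-only cells and 6 in cytotoxic-only cells, beside 20.0% and 34.3% of all genes. Of the 6, the chemokine genes Ccl3 and Ccl4 were found in 1 and 3 cytotoxic-only cells. Among cells of at most 10000 UMIs, 4 of 5 were higher in cytotoxic-only cells, where Ccl3 and Ccl4 had 0 UMIs. The exception among the 7, Klrk1, which encodes the receptor NKG2D, was at 267 CPM in IL-17-only and 282 CPM in cytotoxic-only cells. Cytokine and proliferation genes stood apart in few cells. Il13 was found in 0 IL-17-only and 8 cytotoxic-only cells, and Mki67, a gene of dividing cells, in 0 and 4.

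Of 13 measured genes of receptor signalling, 1 was at least 1.5-fold higher in IL-17-only cells and 8 in cytotoxic-only cells. This count and those of the next lists stand beside 20.0% and 34.3% of all genes, or 23.1% and 36.6% among cells of at most 10000 UMIs. Lck, a kinase at the receptor, had 0 UMIs in IL-17-only cells and was at 160 CPM in cytotoxic-only cells. Ptprc was at 381 CPM in IL-17-only and 1188 CPM in cytotoxic-only cells. Lat, an adaptor, was at 279 CPM against 249 CPM. Of 6 measured macrophage genes, 1 was higher in IL-17-only and 4 in cytotoxic-only cells, and the part of these UMIs in the split was not tested. Of 9 measured cell cycle genes, 9 were at least 1.5-fold higher in cytotoxic-only cells. Only 4 of these had enough UMIs among cells of at most 10000 UMIs, and 2 of the 4 were then higher. Of 15 measured hypoxia and glycolysis genes 11 were higher in cytotoxic-only cells, against 2 of 7 among the shallower cells, which held 19 IL-17-only and 35 cytotoxic-only cells. In the shallower cells 11 of 11 measured IL-17 list genes were higher in IL-17-only cells, against 23.1% of all 1503 genes tested there, with 36.6% lower.

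**Figure D4:**
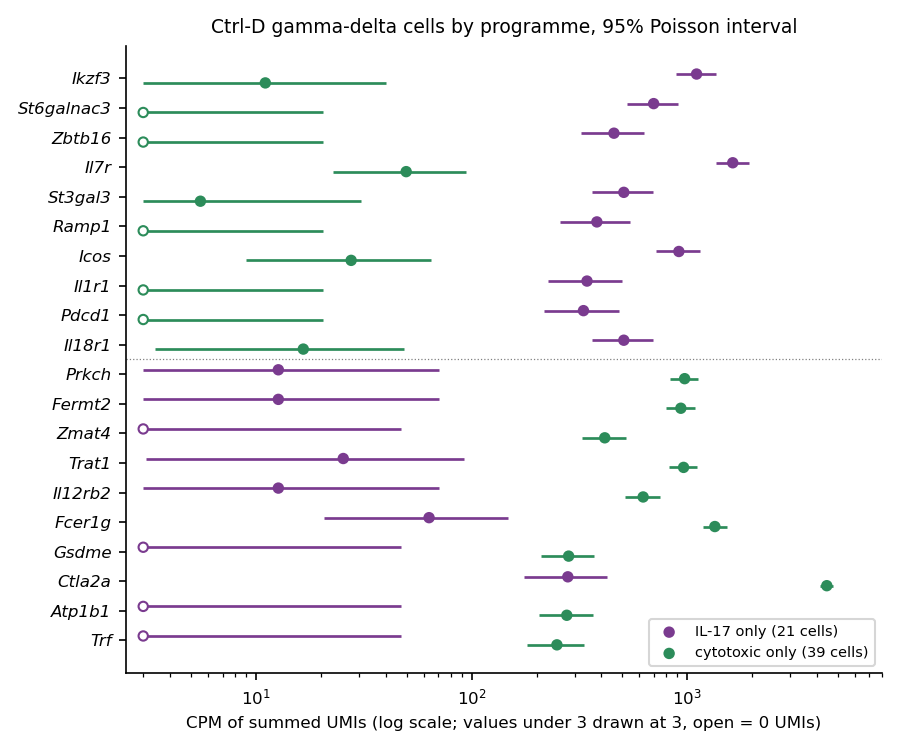
Points give CPM of summed UMIs on a log axis with 95% Poisson intervals for the 10 genes with the largest and the 10 with the smallest ratios between 21 IL-17-only cells (purple) and 39 cytotoxic-only cells (green) of Ctrl-D, core genes left out. Open points stand for 0 UMIs and values under 3 CPM are drawn at 3. The intervals of the 2 classes do not meet for any of the 20 genes. The genes were picked by their ratios in these same cells, so this is no support for the split. The intervals leave out the spread between cells.

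The promoters of 2 genes of each pattern are shown as examples. Those of Cd163l1 and Fcer1g, which were never found in the same Ctrl-D cell, were searched as well but are not printed. The sequences shown are from RefSeq on GRCm38.p6, from 250 bases before to 50 after the start of the gene and 5′ to 3′ on its strand. They run over chr1:20730655-20730954 (plus strand) for Il17a, chr6:67491806-67492105 (minus) for Il23r, chr7:43436888-43437187 (plus) for Nkg7 and chr1:164935473-164935772 (minus) for Xcl1. Capitals mark AGGTCA, the core element of ROR factors, or TGTGGT, an element of RUNX factors, on either strand, so that TGACCT and ACCACA are their reverse complements.
Il17a: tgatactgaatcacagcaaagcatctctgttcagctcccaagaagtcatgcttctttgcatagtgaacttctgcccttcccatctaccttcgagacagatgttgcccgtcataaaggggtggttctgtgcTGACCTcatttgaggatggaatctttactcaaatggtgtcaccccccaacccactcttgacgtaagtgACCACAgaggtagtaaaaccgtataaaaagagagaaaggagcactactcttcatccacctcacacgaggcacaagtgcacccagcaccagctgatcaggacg
Il23r: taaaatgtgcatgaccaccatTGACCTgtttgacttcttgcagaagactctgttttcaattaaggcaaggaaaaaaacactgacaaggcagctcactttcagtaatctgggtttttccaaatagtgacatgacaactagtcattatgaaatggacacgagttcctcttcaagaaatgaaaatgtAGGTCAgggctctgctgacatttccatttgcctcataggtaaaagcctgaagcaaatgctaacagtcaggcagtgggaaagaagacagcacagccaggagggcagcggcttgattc
Nkg7: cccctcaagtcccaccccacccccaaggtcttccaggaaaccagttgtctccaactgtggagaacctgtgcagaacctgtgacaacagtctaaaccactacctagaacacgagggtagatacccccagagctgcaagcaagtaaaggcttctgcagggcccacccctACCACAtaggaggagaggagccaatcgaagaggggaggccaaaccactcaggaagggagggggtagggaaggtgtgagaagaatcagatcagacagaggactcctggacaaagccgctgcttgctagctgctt
Xcl1: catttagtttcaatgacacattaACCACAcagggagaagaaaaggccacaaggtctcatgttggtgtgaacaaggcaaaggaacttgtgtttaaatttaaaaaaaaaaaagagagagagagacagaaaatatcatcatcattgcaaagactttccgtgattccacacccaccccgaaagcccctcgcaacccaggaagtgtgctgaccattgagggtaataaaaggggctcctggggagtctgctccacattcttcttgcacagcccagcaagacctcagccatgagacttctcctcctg
The Il17a promoter held 1 ROR match, 120 bases before the start, and 1 RUNX match, 52 bases before it. The Il23r promoter held 2 ROR matches, 66 and 229 bases before the start, and 0 RUNX matches. Nkg7 and Xcl1 each held 1 RUNX match, 83 and 227 bases before their starts, and 0 ROR matches. Of the 3 further promoters searched, Fcer1g and Prf1 held 1 RUNX match each and Cd163l1 held neither motif. Among 32851 mouse promoters of this length, 16.3% held the ROR element and 16.8% the RUNX element, so a single match is common, and the motifs do not overlap each other. A match is a description of the letters and not evidence of binding.

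The gated cells were also set against the other cells with CD3 UMIs. Those with at least 2 CD3 UMIs and 0 UMIs of Trdc and Tcrg-C1 were split into a CD8 gate (at least 2 UMIs of Cd8a and Cd8b1), a Foxp3 gate and the remainder. These held 11, 34 and 478 cells in Eed iKO-D and 93, 109 and 273 cells in Ctrl-D. The remainder in Eed iKO-D had Cd3d or Cd3g in 84 of its 478 cells and Ptprc in 112, and its fibroblast list stood at 52479 CPM, so by these markers most of it cannot be called T cells. Of 11038 genes measured in both libraries, 6.21% were at least 1.5-fold higher in gamma-delta cells in both, and 10.8% were lower in both. With Cd3d or Cd3g required in every gate, these were 7.77% and 9.02% of 7996 genes.

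The 12 genes with the largest ratios in both libraries were Clnk, Dock8, Il17a, Prf1, Cd7, Cd163l1, Il12rb2, Rgs1, Runx3, Cd247, Dscam and Trf. They were chosen over all gated cells. With Cd3d or Cd3g required, Clnk, an adaptor of immune receptor signalling, was at 312 CPM in gamma-delta cells and 0.590 CPM in the other CD3 gates of Eed iKO-D, and at 136 CPM and 1.43 CPM in those of Ctrl-D. Prf1, the pore protein perforin, was at 272 CPM and 7.67 CPM in Eed iKO-D, a ratio of 35.4 (18.2 to 73.1), and at 183 CPM and 12.9 CPM in Ctrl-D, a ratio of 14.2 (8.85 to 23.3). Only 3 gated Eed iKO-D cells had Prf1 UMIs, against 28 gated Ctrl-D cells. Cd247, the CD3 zeta chain, was at 496 CPM and 188 CPM in Eed iKO-D, and at 454 CPM and 192 CPM in Ctrl-D, with ratios of 2.64 and 2.37. Under this condition the other CD3 gates of Eed iKO-D still included 84 cells of the remainder, with the fibroblast list at 17135 CPM. Against CD8 cells of that library alone the log2 ratio of Cd247 was 0.44, and against Foxp3 cells alone it was 0.89. Against all other CD3 gates of that library together it was 1.41. Without the condition the Prf1 ratio was 80.8 in Eed iKO-D and 29.4 in Ctrl-D, and the Cd247 ratio was 6.08 in Eed iKO-D and 4.83 in Ctrl-D. With Cd3d or Cd3g required in every gate, the lowest log2 ratios among the 12 were 1.27 in Eed iKO-D (Rgs1) and 1.20 in Ctrl-D (Runx3). The 8 lowest were Krt1, Acta2, H19, Robo2, Apoc1, Atf3, Stfa3 and Calm4, genes of keratinocytes, contractile cells and phagocytes among others. Under the same condition Krt1, Acta2, H19 and Calm4 had log2 ratios between -0.76 and -0.08 in Eed iKO-D, against -3.45 to -1.91 over all gated cells.

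Against CD8 T cells of Ctrl-D, 27.7% of 5903 genes lay at least 1.5-fold above them in gamma-delta cells and 14% below (median log2 ratio 0.16). Of 18 measured IL-17 list genes 12 were higher and 1 was lower, with a median log2 ratio of 2.15. Il17a had 116 UMIs in gamma-delta cells and 0 in CD8 cells, where Blk and Zbtb16 were at 0 as well. The cytotoxic list was mixed, with 5 of 23 measured genes higher and 10 lower. Prf1 was at 183 CPM in gamma-delta cells and 10.4 CPM in CD8 cells. Ccl5 and Ifng, the chemokine and interferon of classical killer cells, had 0 UMIs in the Ctrl-D gate, against 481 and 134 CPM in CD8 cells. Tbx21 and Gzma also had 0 UMIs in the Ctrl-D gate. The floor of 3 UMIs among the 317111 of that gate is 9.46 CPM. In the 9 Eed iKO-D cells with Cd3d or Cd3g, Ccl5 had 15 UMIs and Ifng 5 UMIs, each in 1 cell. Against CD8 cells of that library, 7 of 13 measured IL-17 list genes were higher in these 9 cells and 2 lower, where 28.3% of 2080 genes were higher and 23.9% lower.

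Most checkpoint and co-stimulation receptors were lower in the summed gamma-delta gate than in CD8 and Foxp3 cells. In Ctrl-D 10 of 14 measured were lower and 0 higher than in CD8 cells, and 14 of 18 were lower and 0 higher than in Foxp3 cells. In the 9 Eed iKO-D cells with Cd3d or Cd3g, 6 of 9 were lower and 1 higher than in CD8 cells, and 14 of 17 were lower and 2 higher than in Foxp3 cells. Of all genes in these cells, 23.9% were lower and 28.3% higher than in CD8 cells, and 29.2% and 21.0% than in Foxp3 cells. Within the Ctrl-D gate 4 of 7 measured, among them Icos and Pdcd1, were higher in IL-17-only cells and 2 in cytotoxic-only cells. For all genes these shares were 20.0% and 34.3%. Cd28, the main co-stimulatory receptor of alpha-beta T cells, was at 3.15 CPM in gamma-delta cells against 335 CPM in CD8 cells. Ctla4 was at 6.31 CPM against 290 CPM in CD8 cells and 981 CPM in Foxp3 cells. Cd5, which tunes receptor signals, was at 3.15 CPM against 116 CPM in CD8 cells and 237 CPM in Foxp3 cells. Ccr7, the lymph node homing receptor, was at 9.46 CPM against 224 CPM in CD8 cells and 246 CPM in Foxp3 cells. In the 9 Eed iKO-D cells Cd28, Cd5 and Ccr7 had 0 UMIs and Ctla4 was at 24.0 CPM, where the floor of 3 UMIs is 24.0 CPM as well. In CD8 and Foxp3 cells of that library Cd28 was at 500.3 and 236 CPM, Cd5 at 224 and 201 CPM, Ccr7 at 128 and 227 CPM, and Ctla4 at 458 and 1217 CPM.

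Fcer1g was at 792 CPM in gamma-delta cells of Ctrl-D, against 22.6 CPM in CD8 and 2.99 CPM in Foxp3 cells. It was at 232 CPM in the 9 Eed iKO-D cells, against 53.2 CPM in CD8 and 85.7 CPM in Foxp3 cells of that library. Areg was at 1665 CPM in gamma-delta cells of Ctrl-D, against 191 CPM in CD8 and 360 CPM in Foxp3 cells. In the 9 Eed iKO-D cells it was at 199.85 CPM, against 149 CPM in CD8 and 795 CPM in Foxp3 cells, so the order of gamma-delta and Foxp3 cells differed between the libraries. Against Foxp3 cells of Ctrl-D, 14 of 16 measured cytotoxic list genes were higher and 2 lower, where 23.4% of 6496 genes were higher and 21.2% lower. In the 9 Eed iKO-D cells 9 of 13 were higher than in Foxp3 cells and 3 lower, where 21.0% of 4187 genes were higher and 29.2% lower. The cell of 32324 UMIs held 267 of the 331 cytotoxic core UMIs of the 9 cells, with every UMI of Gzma, Gzmb and Gzmc among them. The 6 measured macrophage genes were also higher in gamma-delta than in CD8 and Foxp3 cells of Ctrl-D, and 21 of the 67 cells had any UMI of that list.

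**Figure D5:**
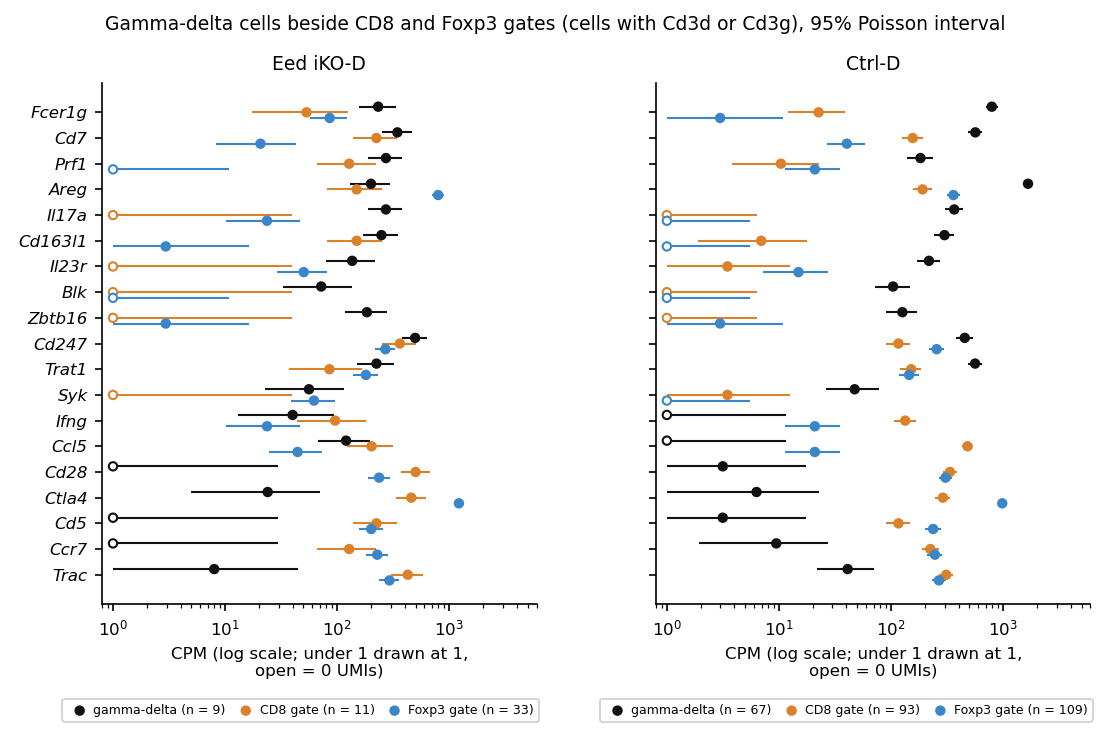
Points give CPM on a log axis with 95% Poisson intervals for 19 genes in gamma-delta (black), CD8 (orange) and Foxp3 (blue) gates, all limited to cells with Cd3d or Cd3g, Eed iKO-D left and Ctrl-D right. Open points stand for 0 UMIs. In Ctrl-D the gamma-delta cells lie right of the other gates for the genes from Fcer1g to Syk and left of them from Ifng to Trac.

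Between the libraries, the summed counts of the gate were led by genes of other cell types. Of 5782 genes with at least 20 UMIs in both together, 24.9% lay at least 1.5-fold above Ctrl-D in Eed iKO-D and 40.7% below it. The median log2 ratio over these genes was -0.34. Without the 6 cells lacking Cd3d and Cd3g, these were 19.3% and 35.7% of 4073 genes, with a median of -0.18. The 10 highest genes were Saa3, Col1a2, Col1a1, Col3a1, Sparc, Dcn, Fn1, Tnfaip6, Col5a2 and Tnc, genes of matrix and of inflamed fibroblasts. Between 85.1% and 98.9% of their Eed iKO-D UMIs came from the 6 cells. Col1a1 was at 10693 CPM in all 15 Eed iKO-D cells and 1919 CPM in the 9 with Cd3d or Cd3g, against 6.31 CPM in Ctrl-D. Of the 240 Col1a1 UMIs of the 9 cells, 207 lay in the deep cell with S100a8. Kept cells with 0 CD3 UMIs had the fibroblast list at 13012 CPM in Eed iKO-D and 1281 CPM in Ctrl-D, and the part of free RNA was not tested. All 12 measured keratinocyte genes were lower in the summed UMIs of Eed iKO-D, with and without the 6 cells. The median cell went the other way. It had the keratinocyte list at 4022 CPM in the 9 cells and 1677 CPM in all 15, against 1131 CPM in Ctrl-D. The highest Ctrl-D cell stood at 68425 CPM.

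The 10 lowest genes were Cd74, Il1b, H2-Ab1, H2-Aa, Areg, C1qb, Hist1h2ap, H2-Eb1, Il7r and Rgs2. Of these Cd74, H2-Ab1, H2-Aa and H2-Eb1, the genes of MHC class II presentation, were found in 9, 9, 5 and 5 of the 67 Ctrl-D cells, and C1qb and Il1b in 5 and 6. Areg was found in 10 Eed iKO-D and 48 Ctrl-D cells. It was at 64.3 CPM in Eed iKO-D and 199.85 CPM in its 9 cells with Cd3d or Cd3g, against 1665 CPM in Ctrl-D, a ratio for the 9 cells of 0.12 (0.0770 to 0.179). In Eed iKO-D cells with 0 CD3 UMIs Areg was at 618 CPM, above its level in the gate. Il7r was at 41.4 CPM in Eed iKO-D and 143.9 CPM in the 9 cells, against 561 CPM in Ctrl-D, and was found in 4 and 28 cells. Rgs2, a regulator of G protein signals, was at 131 CPM in Eed iKO-D and 416 CPM in the 9 cells, against 1400 CPM in Ctrl-D, and was found in 10 and 57 cells.

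Both programme lists lay closer between the libraries without the 6 cells, which follows largely from the scaling. The 6 cells held 71.3% of the UMIs that CPM are scaled to, so genes scarce in them rise once they are left out. The shift is therefore no finding about the programmes. Over all 15 Eed iKO-D cells 2 of 18 measured IL-17 list genes were higher and 14 lower than in Ctrl-D, where 24.9% and 40.7% of all genes were, and the list's median log2 ratio was -2.05, against -0.25 for the 9 cells. Il17a was at 272 CPM in the 9 Eed iKO-D cells and 366 CPM in Ctrl-D, a ratio of 0.743 (0.491 to 1.10), while without cells over 10000 UMIs its log2 ratio was 0.36. Cd163l1 was at 248 CPM in the 9 cells and 299.6 CPM in Ctrl-D, and Nkg7 at 336 CPM and 580.2 CPM. In the 9 cells 1 of the 18 was higher and 6 lower, and of 16 measured cytotoxic list genes 3 were higher and 6 lower. Over all genes the shares were 19.3% and 35.7%. Gzma had 88 UMIs in Eed iKO-D, all in the cell of 32324 UMIs, and 0 in Ctrl-D. Eed had 13 UMIs in Eed iKO-D, or 29.9 CPM, and 79.9 CPM in the 9 cells, against 23 UMIs, or 72.5 CPM, in Ctrl-D. The ratio of Eed was 0.412 (0.192 to 0.848) over all 15 cells and 1.10 (0.468 to 2.41) for the 9 cells, where the interval spans 1. The 6 cells without Cd3d and Cd3g held 3 of the 13 Eed UMIs and 71.3% of all UMIs.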

How the data were processed

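The values are raw UMI counts, which the authors deposited as 1 gene-by-barcode matrix per library. Cell Ranger, which aligns reads and counts UMIs, was version 7.1.0 per the file headers, 2.1.0 per the labels' extract protocol and 8.0 per the submitters' processing notes, which also name mm10. From these counts, cells were filtered and gated as described, UMIs were summed per gate and library, and CPM were computed with exact Poisson intervals. Ratios carry exact conditional binomial intervals, and shares Clopper-Pearson intervals, all at 95%. No test across genes was run, since each group had 1 library. A call means at least 1.5-fold apart among genes with at least 20 UMIs in both sets together. Log2 ratios over lists had 0.5 UMI added to each count, and a count of 0 was set to a floor of 3 UMIs where a bound is given. Thinning drew 1000 UMIs from each cell with a fixed seed. The calculation was tested on simulated data. A call rests on the summed counts alone, so counting error by itself can bring a gene past 1.5-fold. Scrublet was run through scanpy 1.11.5 with an expected rate of 0.08, and its calls were kept in the gate. Gene coordinates came from GENCODE M21, where 99.8% of 32285 gene IDs were found.

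Genes named between the libraries were the 10 highest and 10 lowest ratios after 20 CPM were added, with at least 20 UMIs, 50 CPM and 5 cells with the gene in the higher library. The library's cells with 0 CD3 UMIs had to lie no higher. Against the other CD3 gates the 12 highest and 8 lowest by the smaller of both libraries' ratios were named. Mitochondrial, ribosomal, haemoglobin, immunoglobulin, receptor segment and gate genes, unnamed clones and genes that mark sex were not named. The members, gene lists and tests were chosen with earlier results of these data known. The split of Ctrl-D cells by programme, its rule of 10 genes on each side (in at least 25% of cells), the motifs and the examples from lists were chosen after the values were seen. Alternatives covered the cell and gate limits, doublets, keratinocyte RNA, fold and count limits, scaling and thinning.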

Additional observations from a re-analysis of the deposited data

How the results depend on the processing

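The share of gated cells of Eed iKO-D stood at 0.122% with at least 1000 genes, 0.155% without cells over 2% keratinocyte UMIs and 0.182% with 1 UMI of Trdc and Tcrg-C1, against 0.0698% as reported. In Ctrl-D it stood at 2.21% without cells over 2% keratinocyte UMIs and 2.17% without cells over 10000 UMIs, against 0.891%. Between the libraries 788 genes were higher and 1455 lower with Cd3d or Cd3g required, 296 and 877 without cells over 10000 UMIs, and 714 and 1220 with at least 50 UMIs, against 1439 and 2352. At 2-fold 1481 were lower. Against the other CD3 gates in both libraries, 721 genes were lower with Cd3d or Cd3g, 640 without cells over 10000 UMIs and 1817 by mean per-cell CPM, against 1191. At 50 UMIs 454 were higher and 704 lower, and at 2-fold 280 and 633, against 685 and 1191. In Ctrl-D cytotoxic-only cells were 43.3% without thinning and 43.3% with at least 2 UMIs of a programme, and cells with both were 14.9% at 2000 UMIs, 25.4% without thinning and 1.49% with at least 2 UMIs, against 58.2% and 5.97%. In Eed iKO-D cells with both were 0% with at least 2 UMIs, against 13.3%.

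These log2 ratios between the libraries changed sign. With Cd3d or Cd3g required they were 0.58 for Prf1, 0.18 for Eed, 0.49 for Jarid2, 0.26 for Maf, 0.13 for Cd247 and 0.75 for Ptprc. Without cells over 10000 UMIs they were 0.36 for Il17a, 0.35 for Il23r, 0.21 for Cd7, 0.96 for Eed, 0.99 for Jarid2, -2.38 for Gzmc, 0.67 for Maf, 0.98 for Cd247 and 0.52 for Ptprc. By mean per-cell CPM they were 0.37 for Jarid2 and 0.0229 for Maf. The 6 Eed iKO-D cells without Cd3d and Cd3g held 71.3% of the UMIs that CPM of that gate are scaled to. They had 0 UMIs of Cd247 and Ptprc, and 25 of Maf. The cause of these changes of sign was not tested. The settings on Cd3d or Cd3g and on 10000 UMIs were added after the data were seen. Across settings, 410 ratios of named genes moved by less than 1.5-fold, 131 by 1.5-fold or more, and 17 changed sign. A change of sign was counted only for genes at least 1.5-fold apart in the main setting. No paired analysis was possible because each group had 1 library. Depth and 15 cells limit every value of Eed iKO-D.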
